A study of Mus musculus with 18 samples.

Results

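The 10 genes described here mark hepatic stellate cells or encode collagens and other matrix proteins that these cells make, and they were taken by symbol from the 14451 genes of a liver RNA-sequencing table. They are Lrat, Reln, Des, Dcn, Col1a1, Col1a2, Col3a1, Pdgfrb, Hgf and Ecm1, and each had 1 row in the table. RNA was sequenced from 18 whole livers of wild-type male mice aged 8 to 9 weeks that lived in 12 h of light and 12 h of darkness. At each of 6 zeitgeber times (ZT, the hours since lights on), namely ZT1, ZT5, ZT9, ZT13, ZT17 and ZT21, 3 livers were taken, each from its own animal. The animals whose RNA had the best quality were selected for sequencing from a larger group, and no genotype, drug or diet was varied. ZT1, ZT5 and ZT9 fall in the light phase and ZT13, ZT17 and ZT21 in the dark phase.

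Stellate cells lie between the hepatocytes and the endothelium of the sinusoids and store vitamin A as retinyl esters, which LRAT makes from retinol. In an injured liver they lose these stores and turn into myofibroblasts that lay down fibrillar collagen, while in a healthy liver they secrete little of it and supply growth factors such as HGF. Type I collagen is built from the chains encoded by Col1a1 and Col1a2, type III collagen from the chain of Col3a1, and decorin, encoded by Dcn, binds to their fibrils. PDGFRB receives the platelet-derived growth factor signal to which stellate cells respond by dividing, Des encodes the intermediate filament desmin, Reln the secreted glycoprotein reelin, and Ecm1 a secreted matrix protein.

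The stretch around the start site was available from RefSeq (GRCm38.p6) for 7 of the 10 genes, and for Col1a1, Dcn and Pdgfrb it was not used here. Each window holds 250 bases before the start site and 50 bases from it onwards. Col3a1 is shown because it was the member that limma called lower in the dark. Col1a2 is shown because, of the members, its level followed that of Col3a1 most closely over the livers. Reln is shown because its window holds the letters of the E-box, the motif that the clock proteins CLOCK and BMAL1 bind. The windows lie at chr1:45311288-45311587 on the plus strand, chr6:4505368-4505667 on the plus strand and chr5:22344656-22344955 on the minus strand, and each is written 5′ to 3′ along its gene. Capitals mark TATAAA in Col3a1, CCAAT or its reverse complement ATTGG in Col1a2, and CACGTG in Reln.
Col3a1: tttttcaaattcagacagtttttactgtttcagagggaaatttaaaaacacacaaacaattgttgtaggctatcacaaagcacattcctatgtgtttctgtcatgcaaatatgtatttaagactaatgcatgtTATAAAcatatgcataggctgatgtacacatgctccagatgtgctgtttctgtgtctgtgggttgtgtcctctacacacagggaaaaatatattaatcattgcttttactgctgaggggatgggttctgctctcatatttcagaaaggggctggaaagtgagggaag
Col1a2: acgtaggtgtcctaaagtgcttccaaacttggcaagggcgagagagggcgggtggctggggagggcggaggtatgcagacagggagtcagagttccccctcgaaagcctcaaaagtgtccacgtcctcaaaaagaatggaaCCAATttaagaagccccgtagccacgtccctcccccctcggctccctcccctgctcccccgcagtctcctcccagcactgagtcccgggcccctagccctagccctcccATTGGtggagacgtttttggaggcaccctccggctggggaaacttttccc
Reln: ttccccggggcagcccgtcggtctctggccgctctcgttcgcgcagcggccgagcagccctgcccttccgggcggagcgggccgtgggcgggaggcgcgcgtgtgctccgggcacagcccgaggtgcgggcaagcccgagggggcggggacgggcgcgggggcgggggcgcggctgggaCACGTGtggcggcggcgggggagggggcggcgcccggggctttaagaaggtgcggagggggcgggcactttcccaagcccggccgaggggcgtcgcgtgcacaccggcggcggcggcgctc

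Among all 32851 windows, searched on both strands, the E-box CACGTG was found in 7.15%, and among the members in Reln alone, 71 bases before the start site. The D-box, searched as TTATGTAA and TTACGTAA, was found in 1.06% of all windows and the ROR element core AGGTCA in 16.3%, and neither was found in a window of the members. CCAAT, present in 37.4% of all windows, was found for Lrat, Col1a2 and Hgf, and TATAAA, present in 13.6%, for Col3a1 at 117 bases and Ecm1 at 27 bases before the start site. These letters are a description of the windows and no binding was measured.

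Depth ran from 10268168 to 23242842 estimated reads per liver, and all values below are the authors' normalized values on a linear scale, close to reads per 1000000. The time labels were checked with 4 clock genes, of which Arntl was highest at ZT1, Nr1d1 at ZT5, Dbp at ZT9 and Per2 at ZT13, and over these genes the profile of ZT5 replicate 3 was closer to the mean of ZT9 than to that of its own label, unlike the other 17 livers. ZT5 replicate 1 stood apart for the genes described here: it was the highest liver of its time point for 10 of 10 members, against 35.0% of all genes with a mean value of at least 1, and the highest of the 18 livers for 6 of 10, against 9.27% of those genes. Its median difference from the other livers of ZT5 was 0.64 on the log2 scale over the members and -0.02 over those genes. In whole liver RNA, fewer cells of a type and less RNA per cell cannot be told apart.

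Levels between genes were compared per kilobase of annotated exon, which depends on which exons are used. Ecm1 had the highest level, 36.2 ± 6.53 per kilobase (SD over 18 livers), followed by Dcn with 17.2 ± 1.63, and neither overlapped the gene below it in any liver. Lrat (3.24 ± 1.37) and Col3a1 (3.08 ± 0.813) were next, and Lrat was above Col3a1 in 10 of 18 livers, so their order was within the spread. Col3a1 was above Reln (1.68 ± 0.314) in 18 of 18 livers, and Reln above Pdgfrb (1.23 ± 0.304) in 17. The last 5, from Pdgfrb through Col1a2 (1.09 ± 0.207), Hgf (0.976 ± 0.259) and Col1a1 (0.957 ± 0.340) to Des (0.910 ± 0.237), overlapped, each being above the next in 10 to 12 of 18 livers. Behind these levels stood between 24 and 86 estimated reads per liver for Des and 32 to 196 for Hgf, but 819 to 2010 for Ecm1 and 991 to 2266 for Dcn.

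**Figure D1:**
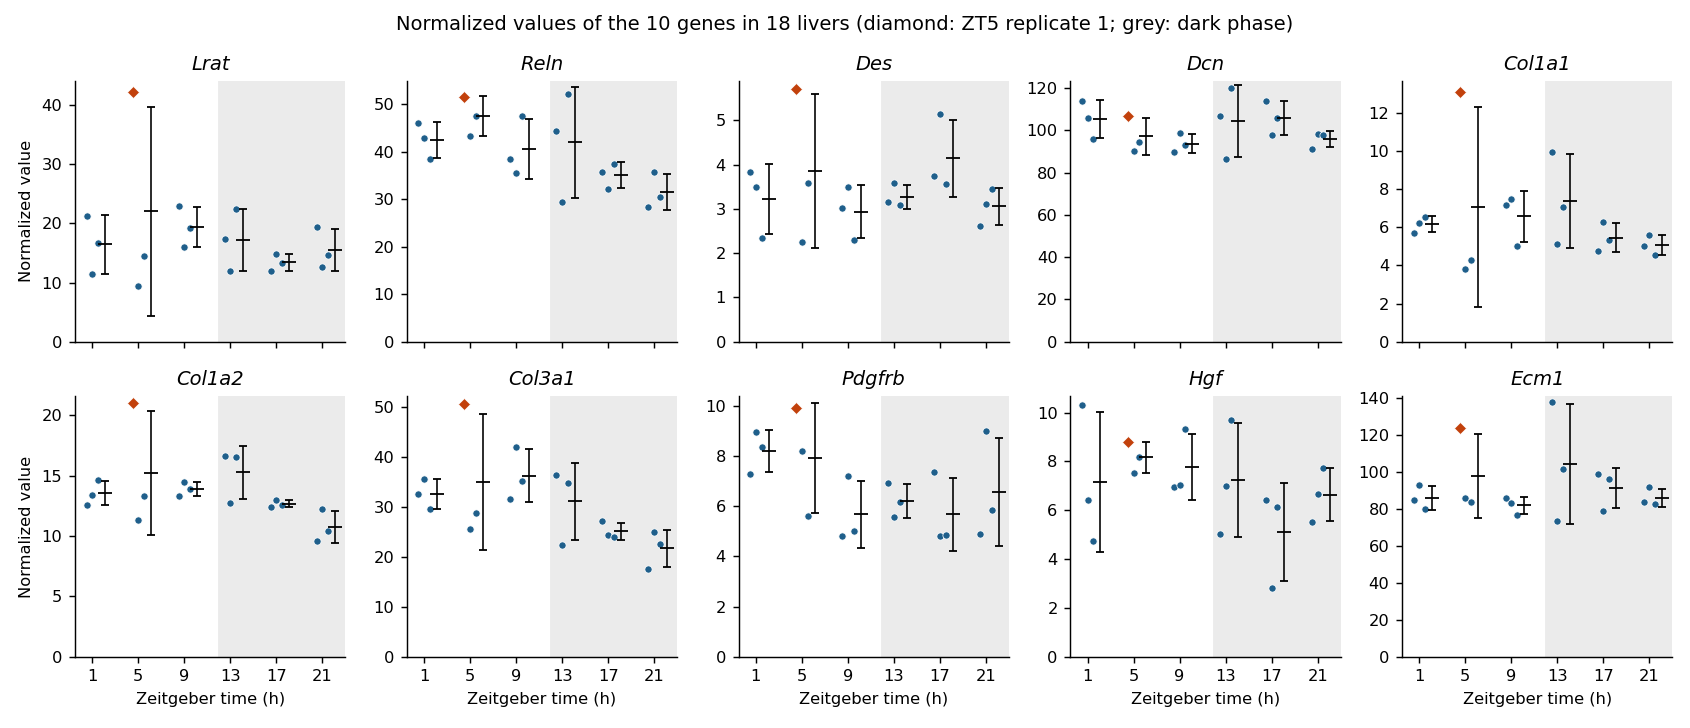
Normalized value (vertical axis, from 0) of each of the 10 genes against zeitgeber time in hours, with 1 point per liver, the mean and SD of 3 livers beside each time point and the dark phase in grey. The liver ZT5 replicate 1, drawn as a diamond, is the highest of its time point in all 10 panels, and Col3a1 and Reln are lowest at ZT21, at 21.7 and 31.5.

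Col3a1 (ENSMUSG00000026043, GRCm38 chromosome 1 from 45311538 to 45349706), the chain of type III collagen, was lower in the dark phase than in the light phase. The 3 livers of ZT1 had 32.6, 35.6 and 29.5, those of ZT5 had 50.5, 25.5 and 28.8, and those of ZT9 had 31.5, 41.9 and 35.2. In the dark, the livers of ZT13 had 36.3, 22.3 and 34.8, those of ZT17 had 27.1, 24.4 and 23.9, and those of ZT21 had 17.6, 24.9 and 22.6. All livers of ZT9 were above all livers of ZT21, with means of 36.2 ± 5.25 and 21.7 ± 3.76 (SD, n = 3) and a ratio of 1.67, while the light and dark groups as a whole overlapped. The 9 light livers had a lowest value of 25.5, a median of 32.6 and a highest of 50.5, and the 9 dark livers 17.6, 24.4 and 36.3. On the log2 scale the dark livers were lower, with a difference of -0.40 (SE 0.13, 95% confidence interval -0.68 to -0.13) and an adjusted p of 0.0332 by limma. A 24 h cosine had an amplitude of 0.32 (SE 0.09) on the log2 scale, a peak at 7.27 h and an adjusted p of 0.0258 by limma, whereas the limma F test over the 6 time points, which assumes no curve, gave an adjusted p of 0.116.

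The call for Col3a1 depended on single livers. It was repeated in 24 alternative settings, of which 18 left out 1 liver each. Without ZT5 replicate 1 the dark minus light difference was -0.31 with an adjusted p of 0.0467 by limma and the cosine had an adjusted p of 0.0504, and without ZT5 replicate 3 they were -0.44, 0.0320 and 0.0204. The difference kept its sign in all of these, between -0.47 and -0.31, and it was called in 17 of the 24. It was not called without ZT1 replicate 1 (adjusted p 0.0549), ZT1 replicate 2 (0.0608), ZT9 replicate 2 (0.0668), ZT13 replicate 2 (0.0631), ZT17 replicate 2 (0.0539), ZT17 replicate 3 (0.0547) or ZT21 replicate 1 (0.0706).

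Reln (ENSMUSG00000042453, chromosome 5 from 21884454 to 22344702), which is used as a marker of stellate cells, had its highest mean at ZT5 and its lowest at ZT21. In the light, the livers of ZT1 had 46.1, 42.8 and 38.4, those of ZT5 had 51.6, 43.3 and 47.5, and those of ZT9 had 38.4, 35.6 and 47.6. In the dark, the livers of ZT13 had 44.3, 29.3 and 52.2, those of ZT17 had 35.8, 32.1 and 37.4, and those of ZT21 had 28.3, 35.7 and 30.4. The livers of ZT5 and ZT21 did not overlap (47.4 ± 4.15 and 31.5 ± 3.83, SD, n = 3), and the highest of all 18 values was a dark liver, ZT13 replicate 3. The dark minus light difference was -0.28 on the log2 scale (SE 0.10, 95% confidence interval -0.49 to -0.07) with an adjusted p of 0.0535 by limma, and the cosine had an adjusted p of 0.0527. Neither passed the threshold of 0.05. The difference was called in 6 of the 24 settings, with adjusted p-values from 0.0171 to 0.103.

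**Figure D2:**
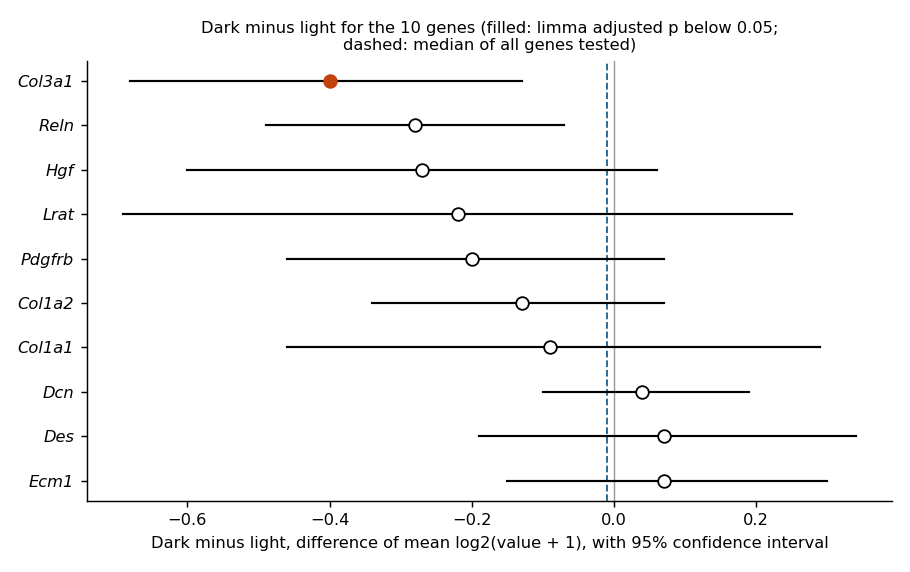
Dark minus light difference of mean log2(value + 1) on the horizontal axis for each of the 10 genes, with its 95% confidence interval from limma (9 livers in each phase), ordered from the lowest to the highest. Col3a1 at -0.40, the filled point, passed the adjusted threshold, and the dashed line is the median of all genes at -0.01.

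Of the other collagen genes, Col1a2 (ENSMUSG00000029661, chromosome 6 from 4504814 to 4541544) ranged from 9.57 in ZT21 replicate 1 to 21.0 in ZT5 replicate 1. Its mean was highest at ZT13 (15.3 ± 2.25) and lowest at ZT21 (10.7 ± 1.35, SD, n = 3), with no overlap between them, but the dark minus light difference of -0.13 (SE 0.10) had an adjusted p of 0.341 by limma and was -0.05 without ZT5 replicate 1. Col1a1 (ENSMUSG00000001506, chromosome 11 from 94936224 to 94953042) ranged from 3.81 in ZT5 replicate 2 to 13.1 in ZT5 replicate 1, livers of the same time point. Its difference of -0.09 (SE 0.18) had an adjusted p of 0.761 and became 0.08 without ZT5 replicate 1. The partner chains of type I collagen therefore had no called difference, with intervals of -0.34 to 0.07 for Col1a2 and -0.46 to 0.29 for Col1a1.

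The secreted matrix proteins Dcn and Ecm1 varied least between time points. Dcn (ENSMUSG00000019929, chromosome 10 from 97479609 to 97518143) had time point means from 93.8 ± 4.67 at ZT9 to 106 ± 7.86 at ZT17 (SD, n = 3), a ratio of 1.13, and a dark minus light difference of 0.04 (SE 0.07, 95% confidence interval -0.10 to 0.19), which lay between -0.02 and 0.09 over the settings. Ecm1 (ENSMUSG00000028108, chromosome 3 from 95734147 to 95739569) went from 82.0 ± 4.74 at ZT9 to 104 ± 32.2 at ZT13 (SD, n = 3). The SD at ZT13 came from values of 138, 73.5 and 102, which include the highest and the lowest of all 18 livers. The Ecm1 difference was 0.07 (SE 0.11), with an adjusted p of 0.656 by limma, and it was 0.00 without ZT13 replicate 1, 0.15 without ZT13 replicate 2 and 0.14 without ZT5 replicate 1.

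Lrat (ENSMUSG00000028003, chromosome 3 from 82892579 to 82903973), the enzyme of retinyl ester storage, had the widest range of the members as a ratio, from 9.40 to 42.2 (4.49 times), and both ends were livers of ZT5. The livers of ZT1 had 21.3, 11.4 and 16.7, those of ZT5 had 42.2, 9.40 and 14.5, and those of ZT9 had 22.9, 16.1 and 19.2. The livers of ZT13 had 17.3, 11.9 and 22.4, those of ZT17 had 12.0, 14.9 and 13.3, and those of ZT21 had 19.4, 12.6 and 14.6. The value of ZT5 replicate 1 was 3.53 times the mean of the other livers of its time point, and the next highest of the 18 was 22.9. Its limma F test had an adjusted p of 0.869, and the dark minus light difference was -0.22 (SE 0.22) with that liver and -0.02 (SE 0.15) without it.

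The remaining members were not called in any test or setting of limma. Des (ENSMUSG00000026208, chromosome 1 from 75360329 to 75368579), the desmin gene, had its highest mean at ZT17 (4.15 ± 0.869) and its lowest at ZT9 (2.94 ± 0.604, SD, n = 3). Pdgfrb (ENSMUSG00000024620, chromosome 18 from 61045150 to 61085061), the growth factor receptor, went from 8.21 ± 0.839 at ZT1 to 5.68 ± 1.47 at ZT17 (SD, n = 3). Hgf (ENSMUSG00000028864, chromosome 5 from 16553495 to 16620152), the ligand of the MET receptor of hepatocytes, went from 8.16 ± 0.634 at ZT5 to 5.12 ± 2.01 at ZT17 (SD, n = 3). Their adjusted p-values in the limma F test were 0.617, 0.299 and 0.414, and the dark minus light intervals all contained 0, from -0.19 to 0.34 for Des, -0.46 to 0.07 for Pdgfrb and -0.60 to 0.06 for Hgf. Over the settings the difference lay between -0.01 and 0.16 for Des, -0.27 and -0.14 for Pdgfrb, and -0.34 and -0.16 for Hgf, and leaving out single livers gave these ends. Reln, Des, Hgf, Col3a1 and Ecm1 overlap small annotated genes that are not among the rows used here, and whether reads were counted by strand is not given in the sources used here.

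Over the 6 time points, limma called 0 of the 10 members at an adjusted p below 0.05, against 26.3% of the 14449 genes tested, and 1 at an unadjusted p below 0.05, against 39.9%. The 24 h cosine called 1 of 10 members, against 35.3% of genes, and 2 at an unadjusted p, against 46.7%. A 12 h cosine fitted beside it called 0 members and 0.872% of genes. In the dark minus light contrast 1 of 10 members was called, against 24.3% of genes, and it was lower in the dark, as were 12.3% of genes, while 0 members and 11.9% of genes were higher. The contrast was below 0 at any p for 7 of 10 members and for 51.3% of genes, with medians of -0.17 and -0.01 on the log2 scale. The single call lower in the dark is thus near the share among all genes.

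The rhythm algorithms that the study compared, written again from its description, called no member. As run for the shares below, each rewritten version called fewer genes in all than the study reports for the same livers. Whether the original programs would call a member was not tested. JTK, which compares ranks with cosine orders, called 0 of 10 members and 14.1% of genes, and MC, which joins JTK with a Lomb–Scargle periodogram, 0 and 18.3%. CircaN, which fits 7 curves and asks for an R-squared of 0.7 or more beside a q-value under 0.05, called 0 and 14.5%, and at least 1 of the 3 algorithms called 0 members and 19.7% of genes. The lowest MC q-value of a member was 0.469, for Col3a1, and the highest R-squared in CircaN was 0.476, for Reln. The variation between livers of the same time point was large for these genes. The median coefficient of variation was 0.143 between time points and 0.202 between replicates over the members, against 0.149 and 0.138 over all genes, and it was larger between replicates for 7 of 10 members and 52.3% of genes. Time points held a median of 29.8% of the log2 variance of the members, where equal means would give 29.4% on average, and 48.9% over all genes.

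Correlations between members were taken over the 18 livers, which are separate animals. Pearson's r of log2(value + 1) was above 0 for 43 of the 45 pairs of members, with a median of 0.39 and a range from -0.13 to 0.86, where all pairs of the 12480 genes with a mean of at least 1 had a median of 0.00. An r of 0.60 or more was found in 10 member pairs and in 3.06% of all pairs. That limit was set as the lowest r of the member pairs called below, so the count of 10 is no separate result. Without ZT5 replicate 1 not all of these pairs kept an r of 0.60, while 3.23% of all pairs reached it. Seen from each member, its 9 partners ranked between 2 and 8756 among all genes by r, with a median rank of 1053, and 15 of the 90 ranks were within 100. By a two-sided permutation test adjusted over the 45 pairs, 10 pairs were called by Pearson's r and 4 by Spearman's rho. The closest pair was Col1a2 and Col3a1 (r = 0.86, permutation p = 2.00e-05, adjusted p 9.00e-04, rho = 0.83, permutation p = 8.00e-05, adjusted p 0.00360), and without the 2 livers farthest from the median r was 0.72. Next came Col1a1 and Col1a2 (r = 0.84, permutation p = 4.00e-05, adjusted p 9.00e-04, rho = 0.76, permutation p = 4.30e-04, adjusted p 0.00967), with 0.63 without the farthest livers. Both measures also called Reln and Col3a1 (r = 0.75, permutation p = 3.50e-04, adjusted p 0.00525, rho = 0.71, permutation p = 0.00134, adjusted p 0.0201), with 0.69 without the farthest livers, and Dcn and Ecm1 (r = 0.60, permutation p = 0.00739, adjusted p 0.0414, rho = 0.66, permutation p = 0.00321, adjusted p 0.0361), with 0.71. The call of Lrat and Col1a1 (r = 0.73) had an r of 0.36 without the farthest livers and 0.50 without ZT5 replicate 1, so it rests on those livers. The same holds for Lrat and Col1a2 (0.62, with 0.22 without the farthest livers and 0.31 without ZT5 replicate 1). Col1a1 and Ecm1 had an r of 0.68, with 0.13 without the farthest livers and 0.55 without ZT5 replicate 1. With each liver taken as its deviation from the mean of its time point, this pair had 0.75, and 0.70 without the farthest livers.

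**Figure D3:**
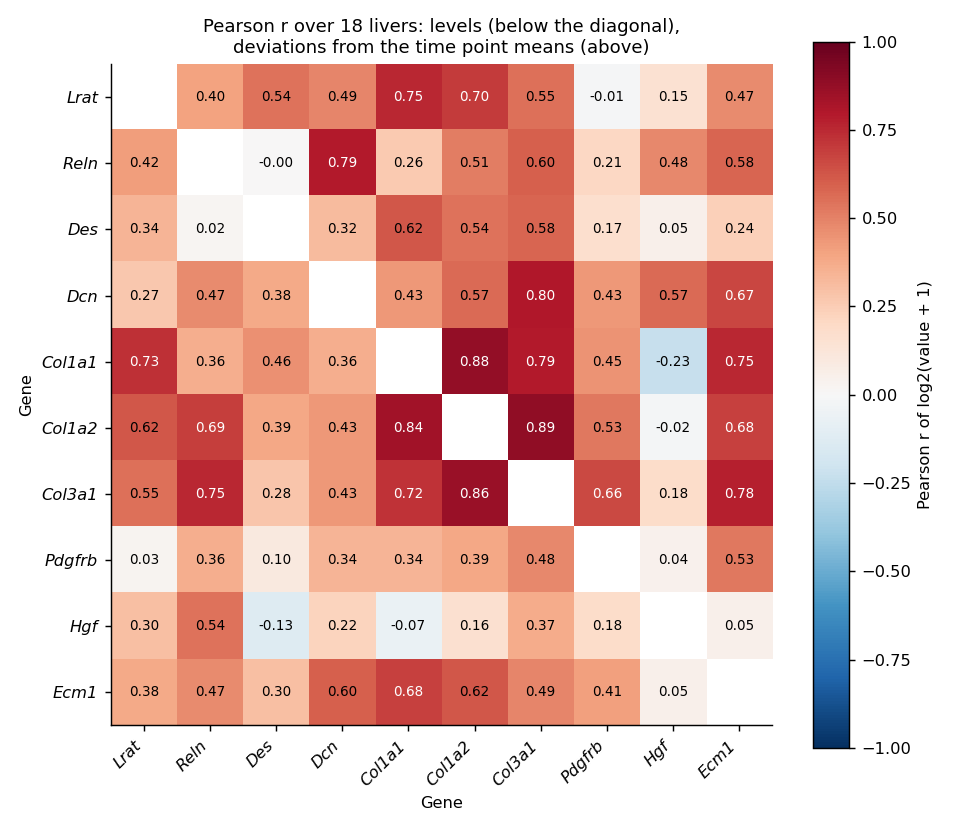
Pearson's r of log2(value + 1) over 18 livers for each pair of the 10 genes, with the levels below the diagonal and the deviations from the time point means above it. The collagen genes Col1a1, Col1a2 and Col3a1 form the darkest block, from 0.72 to 0.86 below the diagonal, and Hgf is the palest row.

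Most pairs were also above 0 once the time of day was taken out. With each liver expressed as its deviation from the mean of its time point, r was above 0 for 41 of 45 pairs, with a median of 0.53 and a range from -0.23 to 0.89, against a median of 0.00 and 50.1% above 0 over all pairs of genes. When livers were permuted only within time points, 0 pairs passed the adjusted threshold by either measure, the lowest adjusted p of Pearson's r being 0.0598, for Dcn and Col3a1 (r = 0.80). Without ZT5 replicate 1 the median r was 0.25 for the levels, with 37 of 45 pairs above 0, and 0.39 for the deviations, with 39 above 0. The livers share library preparation and scaling, and these were not tested as a source of the correlations.

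For each member, the genes of most similar pattern were found among the 12480 genes with a mean of at least 1, by Pearson's r over the 18 livers, as a description. For Lrat they were Cyp26b1, which breaks down retinoic acid (r = 0.85, rho = 0.84, 0.81 without ZT5 replicate 1), Rarb, a retinoic acid receptor (0.84, 0.58 and 0.67), and Robo4 (0.78, 0.67 and 0.59). Cyp26b1 ran from 0.303 in ZT5 replicate 2 to 29.0 in ZT5 replicate 1, with a median of 3.97, and Rarb from 1.52 to 11.7 in the same livers, so both genes had their extremes where Lrat had its own. Neither was called different between the time points (limma F test adjusted p of 0.894 and 0.871), with this spread inside ZT5.

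**Figure D4:**
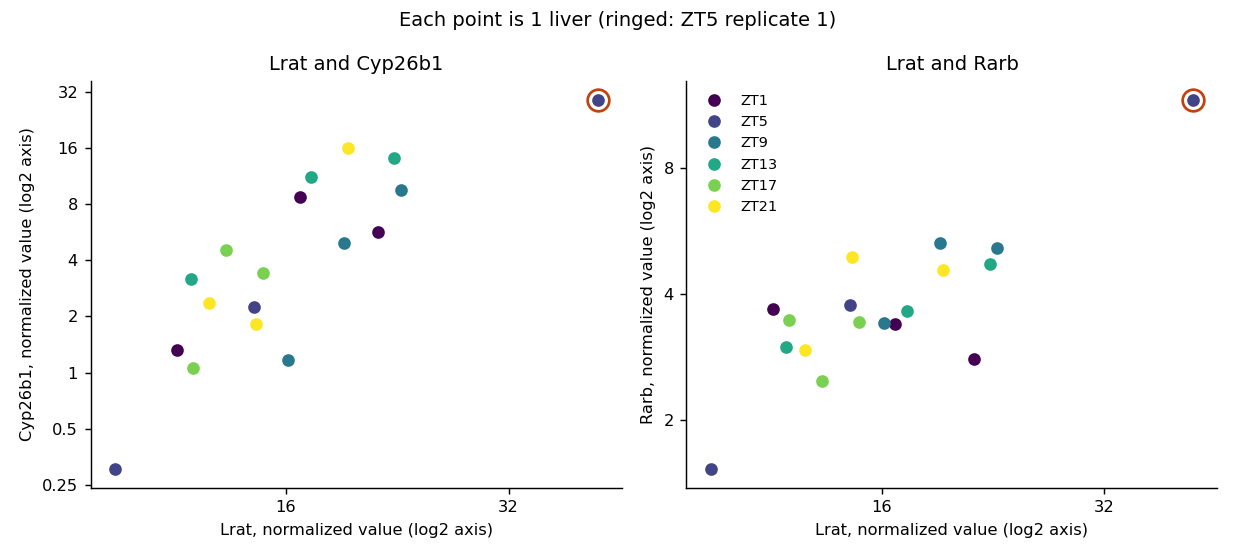
Normalized values of Cyp26b1 (left) and Rarb (right) against Lrat, both axes on a log2 scale, with 1 point per liver coloured by zeitgeber time. The ringed liver, ZT5 replicate 1, has the highest values of all, 42.2 for Lrat with 29.0 and 11.7. Without it the Cyp26b1 points still tend to rise with Lrat (r = 0.81), with scatter.

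Col3a1 was closest to Sparc, which encodes a collagen-binding protein (r = 0.89), Itm2c (0.86) and Sod3, an extracellular superoxide dismutase (0.86). Col1a2 was closest to Ltbp4, which encodes a binding protein of latent TGF-beta (0.88), Epas1 (0.88) and Vim, the vimentin gene (0.86), and Col1a1 to Lrrc32, whose product holds latent TGF-beta at the cell surface (0.90), Fads1 (0.80) and Ltbp4 (0.78). Ecm1 was closest to Plvap, a gene of fenestrated endothelium (0.91), Ltbp4 (0.82) and Sod3 (0.78). Without ZT5 replicate 1 the 3 values were 0.87, 0.81 and 0.80 for Col3a1, 0.80, 0.85 and 0.84 for Col1a2, 0.86, 0.66 and 0.62 for Col1a1, and 0.88, 0.75 and 0.69 for Ecm1. Among the genes named for Col3a1, Col1a2, Col1a1 and Ecm1, Spearman's rho was lowest for Fads1 and Ltbp4 with Col1a1, at 0.49 for both, and for Ltbp4 with Ecm1, at 0.56. Dcn was closest to Ccnd2 (0.79), Abcc9 (0.76) and Sdpr (0.76), Hgf to Plxnc1 (0.86), Dock10 (0.85) and Tmem51 (0.85), and Reln to Atp2b4 (0.84), Arhgap31 (0.83) and Ubash3b (0.83). Pdgfrb was closest to Snai2, a transcription factor of mesenchymal cells (0.80), RP23-325D10.3 (0.80) and Rad51d (0.78), and Des to Hid1 (0.73), Cdkn1c (0.71) and Eif1ax (0.71). Among the genes named for Dcn, Hgf, Reln, Pdgfrb and Des, the value was lowest without ZT5 replicate 1 for Cdkn1c, at 0.61. The rho of Cdkn1c with Des, 0.46, was also the lowest among them.

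Lists of related genes put the members in context, with counts from the limma F test over the 6 time points to be read against the 26.3% of all genes. Of 16 stellate cell markers tested, 2 were called, Pth1r, a parathyroid hormone receptor, and Ngfr, a neurotrophin receptor. Of the 16, 5 are members, and Gfap was not among the rows used here. The F test call of Ngfr was near the threshold, with an adjusted p of 0.0470. Pth1r and Ngfr were also lower in the dark (dark minus light of -0.56 and -0.49, limma adjusted p of 0.00453 and 0.0318). The stellate list did not share this direction as a whole. A difference below 0 was found for 9 of the 16 markers, with a median of -0.11, against 51.3% of all genes. The dark minus light contrast called 2 of the 16 lower, against 12.3% of all genes, and 0 higher, against 11.9%. Of 28 collagen genes, 3 of them members, 4 were called. Col27a1 rose from 27.4 ± 11.5 at ZT5 to 165 ± 22.0 at ZT13 and Col5a3 was highest at ZT1 (67.2 ± 15.4) and lowest at ZT13 (31.3 ± 4.59), both with n = 3, so the collagen genes called did not share 1 time of peak. Col20a1, at a mean of 1.04, was the other named. In the dark minus light contrast 5 of the 28 collagen genes, Col3a1 among them, were called lower and 2 higher. The shares among all genes were 12.3% and 11.9%. The median difference was -0.13 over the list and -0.01 over all genes.

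Of the genes that process collagen, 13 of 32 were called. Loxl4, a lysyl oxidase, went from 0.971 ± 0.310 at ZT13 to 11.2 ± 3.36 at ZT21, and P4ha1 and P4ha2, the catalytic subunits of prolyl 4-hydroxylase, peaked at ZT13 (28.5 ± 5.35) and ZT17 (9.29 ± 0.240, SD, n = 3). For the retinoid genes around Lrat it was 10 of 26, led by Stra6l, a receptor for retinol-binding protein (246 ± 14.2 at ZT1 and 104 ± 7.66 at ZT9), Dhrs3, which reduces retinal (highest at ZT21 with 161 ± 7.77 and lowest at ZT9, a ratio of 2.01), and Dhrs9 (10.8 ± 2.08 at ZT1 and 0.979 ± 0.558 at ZT9, SD, n = 3). Lrat itself was not among them.

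Among the leucine-rich proteoglycans, to which decorin belongs, 3 of 11 were called, Tsku (28.6 ± 10.2 at ZT5 and 258 ± 31.7 at ZT13), Podn and Omd. In the TGF-beta pathway it was 7 of 29, led by Skil, an inhibitor, highest at ZT17, and the receptors Tgfbr2 and Tgfbr1, both highest at ZT9 and lowest at ZT21, with ratios of 1.93 and 1.68. In the PDGF pathway 1 of 6 was called, the ligand Pdgfc (7.69 ± 0.755 at ZT1 and 2.71 ± 0.313 at ZT9, SD, n = 3), and in the HGF pathway 2 of 9, Gab1, an adaptor of MET, and Spint1, an inhibitor of the protease that activates HGF. Spint1 was low, with a mean value of 0.579. Of the matrix proteases and their inhibitors 5 of 16 were called, with Serpine2 (ratio of 4.02) and Mmp19 (ratio of 1.67) highest at ZT17 and lowest at ZT5, and Mmp15 highest at ZT13. The members of these pathways, Dcn, Pdgfrb and Hgf, were not called.

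Markers of other liver cells were also high in ZT5 replicate 1. That liver had the highest summed value of the 18 for the 11 other stellate markers (194, median 122), the 8 portal fibroblast markers (22.8, median 15.9), the 10 myofibroblast markers (65.7, median 49.0), the 11 Kupffer cell markers (399, median 295), the 10 sinusoidal endothelial markers (471, median 351), the 7 leukocyte markers (16.3, median 13.5) and the 5 erythroid markers (674, median 228). Its values were not the highest for the smooth muscle, mesothelial, cholangiocyte and hepatocyte lists. A sum follows its highest genes, and in 3 of these lists 1 gene made up most of it. These genes were Mylk for smooth muscle (mean 85.0, median sum 98.3), Spp1 for cholangiocytes (34.8 and 44.8) and Alb for hepatocytes (64809 and 92992). Such sums need not stand for the other genes of their lists. The endothelial sums ran from 261 to 471 (median 379.8) in the 9 light livers and from 214 to 411 (median 324) in the 9 dark livers, and the Kupffer sums from 186 to 399 (median 328) and from 156 to 377 (median 259), so the phases overlapped. All 10 endothelial and all 11 Kupffer markers had a dark minus light difference below 0, with medians of -0.20 and -0.24, against 51.3% of all genes and a median of -0.01. Of these markers limma called 2 and 1 lower, against 12.3% of genes. The part that these cells have in the lower Col3a1 of the dark phase was not tested.

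**Figure D5:**
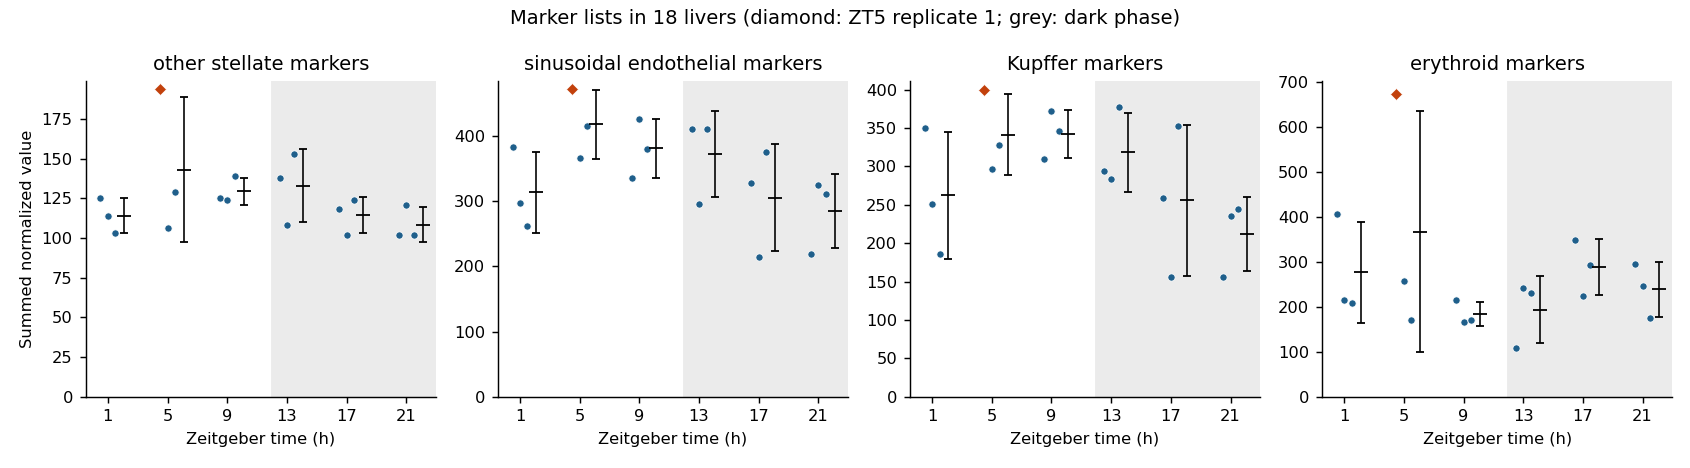
Summed normalized value (vertical axis, from 0) of 4 marker lists in each of the 18 livers against zeitgeber time in hours, with the mean and SD of 3 livers beside each time point, the dark phase in grey and ZT5 replicate 1 as a diamond. The diamond is the highest liver in every panel, at 194, 471, 399 and 674.

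Markers of further cell types completed the lists. Of 10 myofibroblast markers 2 were called, Acta2, the smooth muscle actin of activated stellate cells, which was highest at ZT17 (2.38 ± 1.09) and lowest at ZT9 (0.556 ± 0.155, SD, n = 3), and Myl9, and Acta2 was also the 1 called of 5 smooth muscle markers. The F test counts were 0 of 8 portal fibroblast, 0 of 5 mesothelial, 0 of 10 endothelial, 0 of 5 erythroid, 1 of 11 Kupffer (Cd5l), 1 of 6 cholangiocyte (Sox9), 1 of 7 leukocyte (Ly6g) and 4 of 9 hepatocyte markers, of which Hnf4a, Cyp2e1 and Ttr had the smallest adjusted p. Acta2 and Ly6g were low, with means of 1.09 and 0.530 over the 18 livers, and 5 of the 7 leukocyte markers had a mean below 1. By the 24 h cosine, 3 of 16 stellate, 5 of 10 endothelial, 5 of 11 Kupffer, 3 of 6 cholangiocyte and 4 of 9 hepatocyte markers were called, against 35.3% of all genes. It called 1 mesothelial and 1 leukocyte marker, and 0 of the portal fibroblast, erythroid, myofibroblast and smooth muscle markers.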

How the data were processed

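RNA was sequenced from 18 livers on a HiSeq2500 after NEBNext Ultra library preparation, which selected polyA RNA. Per the labels and the methods, the authors trimmed adapters (Cutadapt), assigned reads to GRCm38 transcripts by RSEM 1.2.20, which estimates counts, and normalized them with limma. Each deposited value is a linear signal, the estimated count plus 0.5 scaled to 1000000 of an effective library size, so the lowest value of a liver stands for 0 reads. Estimated counts are not whole, and count models were not used. Replicate numbers follow the order of deposit and pair no samples.

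The values were tested as log2(value + 1) with limma 3.58.1 (R 4.3.3) over all 18 livers: a moderated F test of the 6 time points, a 24 h cosine, and dark minus light. P-values were adjusted by Benjamini–Hochberg over the 14449 genes tested, leaving out 2 genes with no reads in any liver. Fold changes on this scale understate the change of low genes. JTK, MC and CircaN were written again in Python 3.11.15, with periods from 20 to 28 h. The constants of the CircaN curves were read from a drawing. JTK was rewritten after counts of called genes had been seen, first to give two-sided p-values with no sign for equal cosines, then to set the cosines at the sampled times as the published algorithm does, and the earlier versions are kept as alternatives chosen after seeing the data. The limma F test, the limma cosine, JTK, MC and CircaN were run on simulated data with known rhythms. The dark minus light contrast and the permutation test were not scored there. Correlations used 100000 permutations.

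Genes were named by rule: the members, up to 3 genes per list with the smallest adjusted p in the F test, the 3 genes most correlated with each member, and 4 clock genes. The members and lists were chosen with earlier results of these data known. Alternatives were pseudocounts of 0.1 and 0.5, a mean value of at least 1, a variance trend, 2 other scalings and leaving out each liver. A gene's coordinates and exon length are from GENCODE M21 (GRCm38).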

Additional observations from a re-analysis of the deposited data

How the results depend on the processing

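The number of members called by the 24 h cosine went from 1 to 2, with Reln added, under a mean-variance trend, a mean value of at least 1, columns rescaled to 1000000, and 24 h and 12 h cosines together. The number called dark against light also went from 1 to 2 under the first 3 of these. The number of correlated pairs went from 10 to 0 with deviations from the time point means and livers permuted only within time points, which changed 2 choices together, while the median r was 0.39 for the levels and 0.53 for the deviations. The cause of these changes was not tested. With each liver left out, the F test called 0 to 1 member (Col3a1 without ZT5 replicate 1, Reln without ZT13 replicate 2), the cosine 0 to 2 and dark against light 0 to 2. The Col3a1 cosine was not called without ZT5 replicate 1, ZT9 replicate 2 or ZT21 replicate 1. JTK, MC and CircaN called 0 members in every setting run. Over all genes, JTK called 2039, but 3239 with cosines peaking 1 h before the sampled times and 3662 in its first version, both chosen after seeing the data, and 1266 without ZT5 replicate 2. MC called 2640, and 1207 when its p-values were joined by Bonferroni. No paired analysis was possible because each liver came from its own animal, and the replicate numbers follow the order of deposit only. Among the members, depth limits Des and Hgf most, at as few as 24 and 32 estimated reads.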
